A study of Mus musculus with 12 samples.

Results

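The genes described here are 10 transcriptional regulators of mitochondrial content and fuel use in the heart: the coactivators Ppargc1a and Ppargc1b, the oestrogen-related receptors Esrra, Esrrb and Esrrg, the fatty-acid receptors Ppara and Ppard, and the factors Nrf1, Gabpa and Tfam. They were chosen by name and read probe by probe, as 22 probes of the 41174 on the array and 10 of the 19087 named genes. The groups were 6 knockout (KO) mice, AMPK alpha 2 -/-, and 6 wild-type (WT) mice, AMPK alpha 2 +/+. All were C57B6 mice aged 7 months, anaesthetised with pentobarbital before the heart was removed, and total RNA came from ventricular muscle. AMPK is a kinase that responds to a falling cellular energy charge, and alpha 2 is its main catalytic subunit in heart muscle. Each animal had 1 Agilent array with 2 colours, on which its RNA was set against a commercial reference RNA from 11 mouse cell lines. In both genotypes, replicates 1 to 3 had their heart RNA in Cy3 and replicates 4 to 6 had it in Cy5. The labels name no promoter or Cre, do not say which part of the gene was deleted, and do not give sex or litter.

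PGC-1 alpha (Ppargc1a) and PGC-1 beta (Ppargc1b) do not bind DNA themselves; they are recruited by nuclear receptors and other factors and switch on genes of oxidative metabolism. The oestrogen-related receptors carry them to genes of the respiratory chain and the citric acid cycle, and the PPARs carry them to genes of fatty acid oxidation. NRF1 and GABP act on nuclear genes for respiratory subunits and on Tfam, whose protein packs mitochondrial DNA and takes part in its transcription. In muscle, AMPK phosphorylates PGC-1 alpha and is known to raise Ppargc1a transcription, so these genes are natural ones to inspect in mice without alpha 2.

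No probe of the 10 genes differed between KO and WT at an adjusted p under 0.05 (limma, Benjamini-Hochberg over all probes tested), and 2 of the 22 had an unadjusted p under 0.05. Over all 36826 probes tested, 2 were called, which is 0.00543%, both higher in KO, and 5.42% had an unadjusted p under 0.05. After quantile normalization of the arrays 1 probe was higher and 2 were lower. With 1 array left out, the count of called probes was 4 without KO replicate 6, 2 without WT replicate 3 and 1 without any other array, with 0 members among them. The 2 members with small unadjusted p were a probe of Esrrb and a probe of Esrrg, both higher in KO hearts by about 0.5 on the log2 scale. For 18 of the 22 probes, the 95% interval of the difference lay within 0.5 either way, a 1.41-fold change. All values are deposited log ratios of heart over reference RNA, read here as log2 since their base is not stated.

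The members' differences lay close to 0. The KO minus WT difference was above 0 for 14 probes and below 0 for 8, against 18451 above and 18375 below over all probes tested. The median difference was 0.031 over the members and 0.00033 over all probes. In fits that left out single arrays, the members' median ran from -0.0092 without WT replicate 2 to 0.095 without WT replicate 5, and it was 0.0033 without KO replicate 1. The median size of the difference was 0.063 over the members and 0.10 over all probes, with a median standard error of 0.13 and 0.14. For 13 of the 22 probes the difference was smaller than 0.1, and for 20 it was smaller than 0.25.

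**Figure D1:**
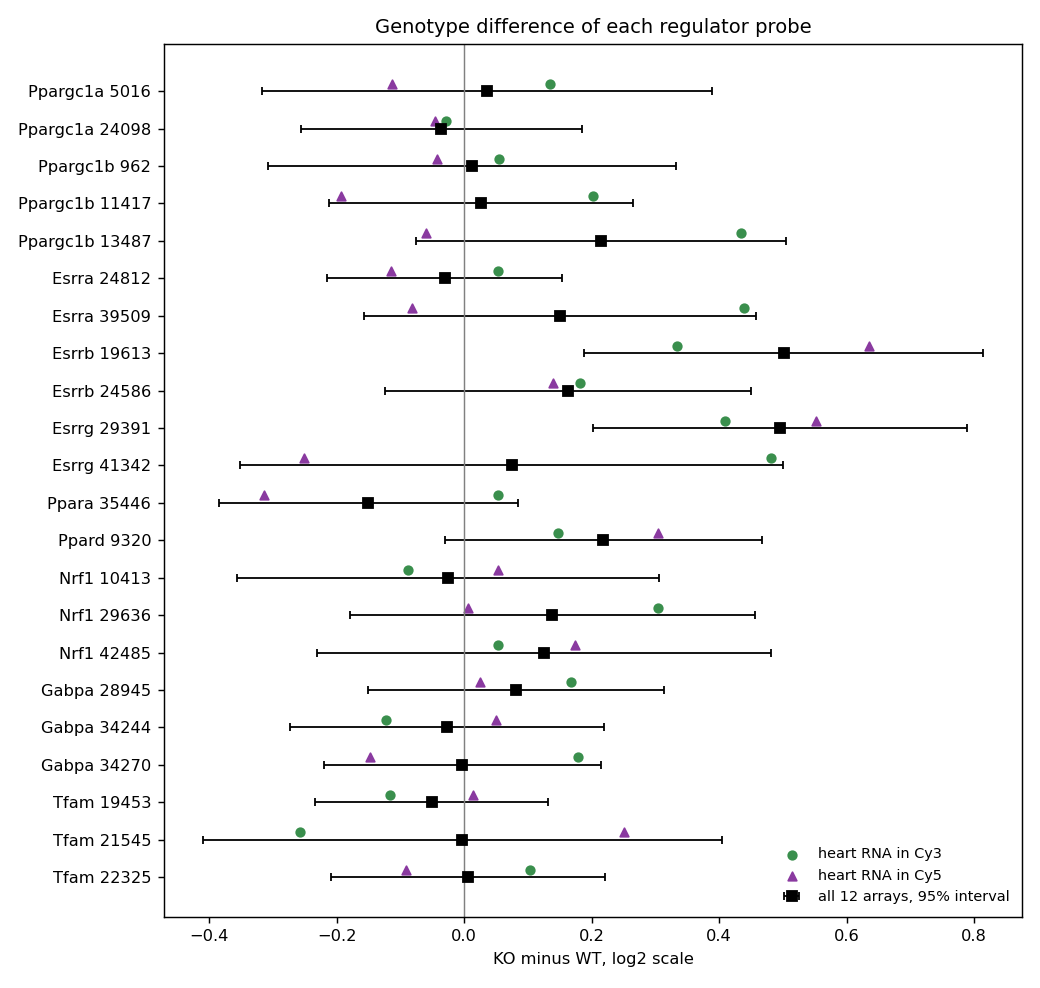
KO minus WT difference of each member probe on the log2 scale with its 95% interval, from the fit with dye orientation as a covariate, and the difference within the Cy3 and within the Cy5 arrays as separate points. The intervals of 20 probes include 0, and those of Esrrb probe 19613 and Esrrg probe 29391 lie above it.

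Several facts of the arrays bear on these values. All 14 cardiomyocyte markers were above the reference on every array, with a median log2 ratio of 5.58, and 8 of the 9 dividing-cell markers lay under the reference throughout. Between 0.306% and 41.7% of an array's cells were empty, most in KO replicate 4 and in WT replicate 3 (39.2%), so a member had 4 to 6 values in each group. All 22 member probes had at least 2 values in each combination of genotype and dye, the minimum for the test. Prkaa2, which encodes AMPK alpha 2, had 1 probe, at 3.58 to 4.27 in 5 KO hearts and 3.99 to 4.23 in 6 WT hearts (limma adjusted p = 0.925). That probe checks nothing here, because its place relative to the deleted part is not known. The median over 6 lung markers was 3.24 in KO replicate 6, against -0.11 to 0.20 in the other KO arrays and -0.045 to 0.31 in WT arrays. Liver markers (8 measured) had a median of 4.87 on that same array, against -0.0095 to 0.31 in the other KO arrays and -0.027 to 1.16 in WT arrays. The 1.16 was in WT replicate 3, where of these markers only Trf (2.11) and Apoh (0.22) had values. Markers of atrial muscle (8 measured) had a median of 4.38 in KO replicate 1 and 3.55 in WT replicate 2, against at most 1.85 elsewhere. Single atrial genes were high on further arrays: Myl4, an atrial myosin light chain, read 5.56, 1.90 and 2.16 in KO replicates 1, 5 and 6 and 5.64 and 3.72 in WT replicates 2 and 6. On the other 7 arrays Myl4 lay between -0.30 and 0.084. In WT replicate 2 the fat genes Adipoq and Ucp1 were also at 3.93 and 3.81. The share of these other tissues in the members' values was not tested beyond leaving out KO replicates 1 and 6 with WT replicate 2, or all 5 arrays with Myl4 above 1. In whole ventricle, fewer cells of a type and less RNA per cell cannot be told apart.

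The level in heart relative to the reference differed by probe. In the fit over all 12 arrays, 15 of the 22 probes lay above the reference and 4 below it at an adjusted p under 0.05 (limma), against 24.4% and 26.3% of all probes tested. All probes of the coactivators, of Esrra, of Ppara and of Gabpa lay above it, as did 1 of 2 probes each of Esrrb and Esrrg and 2 of 3 of Tfam. All 3 Nrf1 probes and 1 Esrrg probe lay below it. For Nrf1 probe 10413 (level -0.21, limma adjusted p = 0.0368) that call was lost without any 1 of KO replicates 2, 3 and 6 and WT replicates 2, 3 and 5, where the level was -0.21 to -0.15. The remaining 3, a probe each of Esrrb, Ppard and Tfam, did not pass in either direction, at levels of 0.053 ± 0.072, 0.082 ± 0.056 and -0.09 ± 0.095 (estimate ± SE). A level states the signal of a probe in heart RNA relative to the mixed cell lines. It is not compared between genes, and probes of Esrra, Esrrb and Esrrg gave levels far apart within the gene. A ratio near 0 does not tell a transcript held by both RNAs from little signal in both. Levels near 0 include those of Esrrb probe 19613 (0.053) and Esrrg probe 29391 (-0.25).

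**Figure D2:**
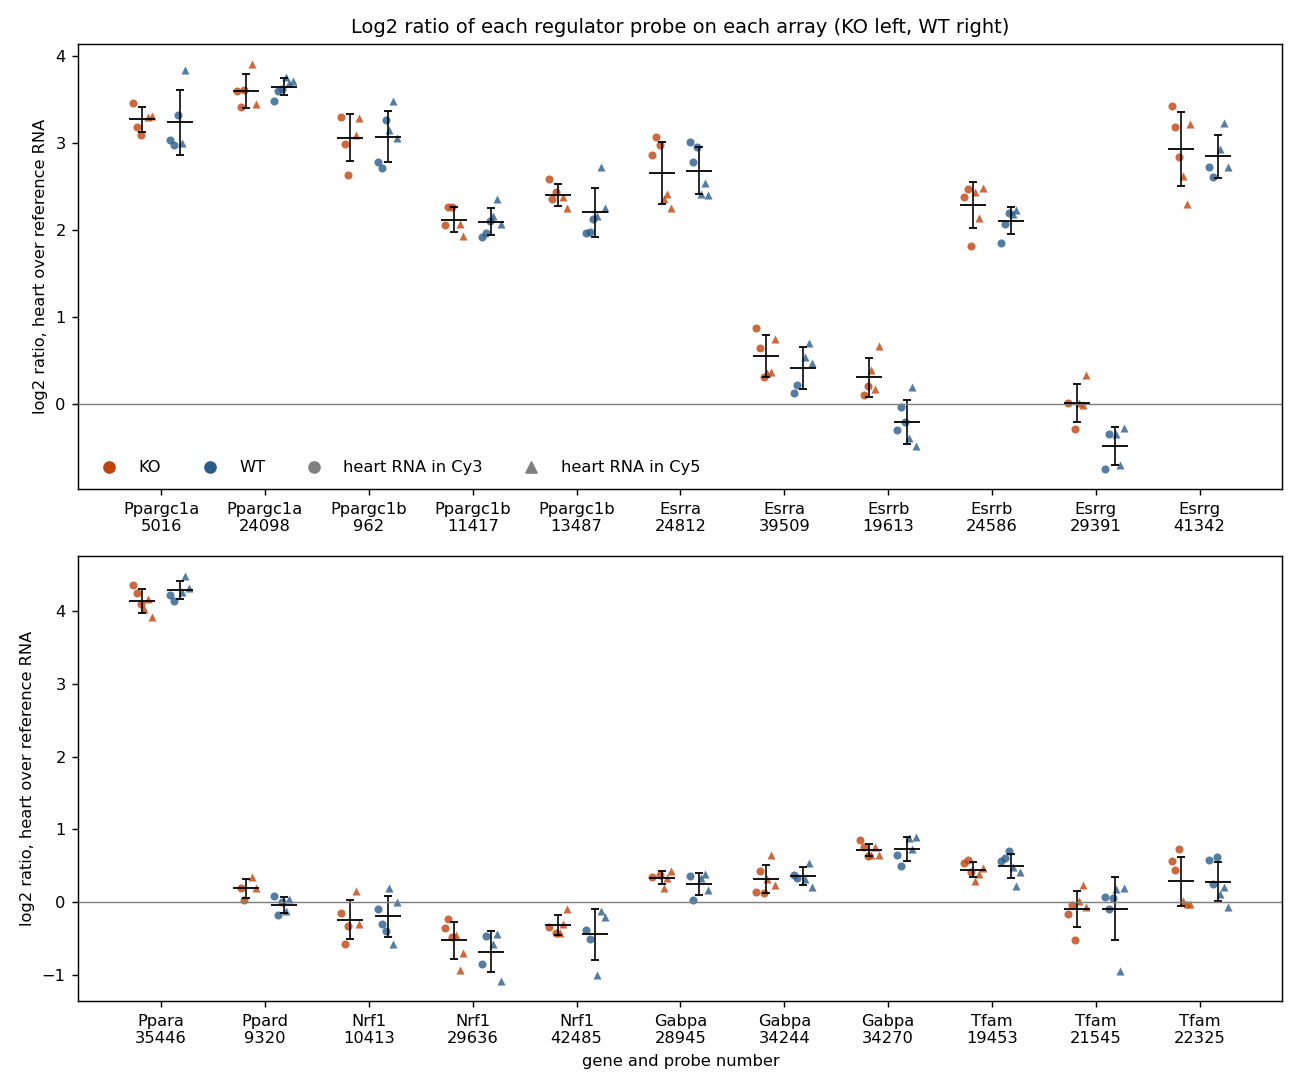
Log2 ratio of heart over reference RNA on each array for the 22 member probes, KO left and WT right within each probe, with circles for heart RNA in Cy3 and triangles for Cy5, and bars for the mean ± SD. Ppargc1a, Ppargc1b and Ppara lie well above 0 on every array measured, Nrf1 lies mostly below it, and KO and WT points overlap in all 22 probes.

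Ppargc1a, the coactivator that exercise, cold and fasting induce, had 2 probes, neither called in KO against WT. Probe 5016 read 3.46, 3.18, 3.10, 3.30 and 3.31 in 5 KO hearts and 3.04, 2.98, 3.33, 2.99 and 3.84 in 5 WT hearts. Every KO value lay inside the WT range, which WT replicate 5 alone stretched above 3.33. All 5 KO values also lay above the WT median of 3.04. The difference was 0.035 ± 0.16 (SE, limma adjusted p = 0.994), with a 95% interval from -0.32 to 0.39. Without WT replicate 5 it was 0.19, and within the Cy5 arrays it was -0.11. Probe 24098 read 3.59, 3.41, 3.61, 3.90 and 3.44 in 5 KO hearts, and 3.48 at the lowest, 3.65 at the median and 3.76 at the highest in 6 WT hearts. Here 1 KO value lay above the highest WT value and 2 lay below the lowest. Its difference was -0.036 ± 0.10 (limma adjusted p = 0.987), with a 95% interval from -0.26 to 0.18. The level of the transcript over the reference was 3.27 ± 0.082 by the first probe and 3.62 ± 0.051 by the second, which is 9.64-fold and 12.3-fold.

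Ppargc1b, the close relative that keeps up basal mitochondrial function, had 3 probes at levels of 3.08, 2.11 and 2.31, all above the reference on every array measured. Probe 13487 had the largest genotype difference of the 3. It read 2.59, 2.35, 2.44, 2.38 and 2.26 in 5 KO hearts, and 1.97 at the lowest, 2.14 at the median and 2.72 at the highest in 6 WT hearts. All 5 KO values lay above the WT median and 0 lay above the highest WT value, that of replicate 5. The difference was 0.21 ± 0.13 (limma adjusted p = 0.937), and the 95% interval ran from -0.076 to 0.51. The difference came to 0.43 within the Cy3 arrays and -0.059 within the Cy5 arrays. The other 2 probes differed by 0.012 ± 0.15 and 0.026 ± 0.11, and whether the 3 probes differed from each other was not tested.

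Esrra encodes ERR alpha, the receptor through which PGC-1 alpha acts on much of the respiratory chain. By probe 24812 its lowest, median and highest log2 ratios were 2.26, 2.64 and 3.07 in KO hearts, against 2.40, 2.66 and 3.01 in WT hearts (n = 6 each). The groups overlapped, with 1 KO value above the highest WT value and 2 below the lowest, and the difference was -0.031 ± 0.086 (limma adjusted p = 0.986). The values split by dye orientation: the 6 Cy3 arrays read 2.79 to 3.07 and the 6 Cy5 arrays 2.26 to 2.54, without overlap. Cy3 and Cy5 arrays came from different animals, so dye and set of animals cannot be told apart. The second probe, 39509, lay at a level of 0.48 against 2.67 for the first, a gap of 2.19 between probes of the same gene. The first probe is annotated to a RefSeq transcript and the second to a cDNA clone. The difference by probe 39509 was 0.15 ± 0.14 (limma adjusted p = 0.951).

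Esrrb encodes ERR beta, best known from embryonic stem cells and placenta. Probe 19613, annotated to a cDNA clone, read 0.11, 0.21, 0.40, 0.17 and 0.67 in 5 KO hearts, and -0.48 at the lowest, -0.25 at the median and 0.20 at the highest in 6 WT hearts. All 5 KO values were above 0 and 5 of the 6 WT values below it, but WT replicate 5 lay above 2 of the KO hearts. The fitted difference was 0.50 ± 0.14 (95% interval 0.19 to 0.81, limma unadjusted p = 0.00444, adjusted p = 0.827). It ranked 190 among the p-values of all probes tested, and it was 0.33 within the Cy3 arrays and 0.64 within the Cy5 arrays. Its level of 0.053 ± 0.072 did not differ from the reference (limma adjusted p = 0.595).

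The other Esrrb probe, 24586, annotated to the RefSeq transcript, gave a difference in the same direction and of smaller size. Its lowest, median and highest values were 1.82, 2.41 and 2.48 in 6 KO hearts, and its 5 WT values were 1.85, 2.07, 2.20, 2.19 and 2.23. Of the 6 KO values 4 lay above the highest WT value and 1, replicate 3, lay below the lowest. The difference was 0.16 ± 0.13 (limma adjusted p = 0.948), with a 95% interval from -0.12 to 0.45. As a mean of both probes, Esrrb differed by 0.38 ± 0.12 (limma adjusted p = 0.870).

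Esrrg encodes ERR gamma, the receptor that drives the switch of the newborn heart to oxidative metabolism. Probe 29391 read 0.012, -0.28, 0.017, -0.0080 and 0.34 in 5 KO hearts, and -0.74, -0.34, -0.34, -0.69 and -0.27 in 5 WT hearts. KO hearts lay above the highest WT value in 4 of 5 cases, and KO replicate 3 lay at -0.28, level with the highest WT heart. The fitted difference was 0.50 ± 0.13 (95% interval 0.20 to 0.79, limma unadjusted p = 0.00331, adjusted p = 0.802). It ranked 151 among all probes, and it was 0.41 within the Cy3 arrays and 0.55 within the Cy5 arrays.

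The second Esrrg probe, 41342, is annotated to the same RefSeq transcript and did not show that difference. Its lowest, median and highest values were 2.30, 3.01 and 3.42 in 6 KO hearts, and its 5 WT values were 2.73, 2.61, 2.93, 3.23 and 2.73. The groups overlapped on both sides, with 1 KO value above the highest and 1 below the lowest WT value. The difference was 0.074 ± 0.20 (limma adjusted p = 0.985), with a 95% interval from -0.35 to 0.50. It was 0.48 within the Cy3 arrays and -0.25 within the Cy5 arrays, and the test of that contrast gave an adjusted p of 0.934 (limma). The levels of both probes, -0.25 and 2.89, lay 3.14 apart although they name 1 transcript. The mean of both differed by 0.30 ± 0.13 (limma adjusted p = 0.930).

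Esrrb probe 19613 and Esrrg probe 29391 kept their direction without the arrays that held other tissues, and Esrrg probe 41342 did not. Without KO replicate 1, KO replicate 6 and WT replicate 2, the difference was 0.46 ± 0.15 for Esrrb probe 19613 and 0.45 ± 0.14 for Esrrg probe 29391 (limma adjusted p = 1.00 for both). KO replicate 6, the array with liver and lung transcripts, had the highest value of both probes. Without it alone the differences were 0.42 ± 0.14 and 0.43 ± 0.14 (limma adjusted p = 0.986 and 0.975). Without all 5 arrays with Myl4 above 1 they were 0.44 ± 0.17 and 0.50 ± 0.19 (limma adjusted p = 0.999 for both), in a setting added after the data were seen. For Esrrg probe 29391 this left only KO replicates 3 and 4, at -0.28 and 0.017, against WT replicates 1, 4 and 5. KO replicate 4 was the array with most empty cells (41.7%), so the kept direction rests on very few hearts. Esrrg probe 41342, at 0.074 with all arrays, was at -0.22 ± 0.20 without the 3 arrays and at -0.084 ± 0.22 without the 5. It was also below 0 without any 1 of the 3, at -0.013, -0.010 and -0.026 without KO replicate 1, KO replicate 6 and WT replicate 2.

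Ppara encodes the receptor that fatty acids and fibrates activate in the heart, and it had 1 probe, with a level of 4.22 ± 0.054, or 18.6-fold over the reference. Its lowest, median and highest values were 3.92, 4.13 and 4.37 in 6 KO hearts, and its 5 WT values were 4.22, 4.15, 4.26, 4.48 and 4.32. KO values lay below the lowest WT value in 3 of 6 hearts and above the highest in 0. The difference was -0.15 ± 0.11 (limma adjusted p = 0.943), with a 95% interval from -0.38 to 0.084. It was 0.054 within the Cy3 arrays and -0.31 within the Cy5 arrays.

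Ppard encodes the more widely expressed delta receptor, which serves similar genes in heart muscle. Its 1 probe had the fewest values, 0.19, 0.033, 0.35 and 0.19 in 4 KO hearts and 0.079, -0.18, -0.0040, -0.12 and 0.047 in 5 WT hearts. All 4 KO values were above 0 and 3 lay above the highest WT value, while KO replicate 3 lay among the WT values. The difference was 0.22 ± 0.11 (limma unadjusted p = 0.0794, adjusted p = 0.922), with a 95% interval from -0.031 to 0.47. It was 0.15 within the Cy3 arrays and 0.30 within the Cy5 arrays.

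Nrf1 encodes nuclear respiratory factor 1, which binds GC-rich elements before genes of the respiratory chain. Its 3 probes lay below the reference, at levels of -0.21, -0.59 and -0.39. Values above 0 came from 3 of 11 arrays for probe 10413 and from 0 of 11 and 0 of 10 for the other probes. The genotype differences were -0.026 ± 0.15, 0.14 ± 0.15 and 0.13 ± 0.16 (limma adjusted p = 0.994, 0.951 and 0.961). The widest spread was in probe 42485, whose 5 WT values reached down to -1.01 in replicate 4, against -0.43 for the lowest of 5 KO values.

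Gabpa encodes the DNA-binding subunit of GABP, also called nuclear respiratory factor 2. Its 3 probes lay above the reference on every array measured, at levels of 0.29, 0.33 and 0.72. The genotype differences were 0.081 ± 0.11, -0.027 ± 0.11 and -0.0030 ± 0.10 (limma adjusted p from 0.961 to 0.999). For probe 34270 the lowest, median and highest values were 0.63, 0.71 and 0.85 in 6 KO hearts, and the 5 WT values were 0.64, 0.50, 0.89, 0.73 and 0.89. All 6 KO values lay inside the WT range.

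Tfam encodes mitochondrial transcription factor A. By probe 19453, annotated to a cDNA accession, the lowest, median and highest values were 0.30, 0.44 and 0.57 in KO hearts, against 0.23, 0.52 and 0.70 in WT hearts (n = 6 each). All 6 KO values lay inside the WT range. The difference was -0.051 ± 0.085 (limma adjusted p = 0.972), with a 95% interval from -0.23 to 0.13. Probes 21545 and 22325, both annotated to the RefSeq transcript, differed by -0.0032 ± 0.19 and 0.0063 ± 0.10. Probe 22325 split by dye orientation, and so by set of animals, at 0.25 to 0.74 on Cy3 arrays and -0.073 to 0.21 on Cy5 arrays.

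In promoter sequence, 3 members carried a letter match to elements of the NRF and ETS families. RefSeq windows of GRCm38.p6, from 250 bases before to 50 bases after a gene's start, were searched on both strands, with 14 windows for 9 members, Ppargc1b being the gene without one. The stretches with a match are shown because GABP and NRF1 are themselves members, with the matched letters in capitals and up to 25 bases on either side, ending before the gene's start. All run 5′ to 3′ in the direction of the gene.
Tfam: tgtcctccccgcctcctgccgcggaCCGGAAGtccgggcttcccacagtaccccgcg
Gabpa: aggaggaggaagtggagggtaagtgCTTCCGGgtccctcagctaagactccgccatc
Ppara: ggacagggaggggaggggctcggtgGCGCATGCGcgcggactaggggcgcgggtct
The Tfam stretch is chr10:71238060-71238116 on the minus strand, with the ETS core CCGGAAG from 47 to 41 bases before the start. The Gabpa stretch is chr16:84835006-84835062 on the plus strand, where CTTCCGG, the same core on the opposite strand, lies 93 to 87 bases before the start. The Ppara stretch is chr15:85735720-85735775 on the plus strand, with GCGCATGCG, the NRF1 element, from 31 to 23 bases before the start, overlapping its own match on the other strand.

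The share of promoters with a match varied widely by motif. The ETS core CCGGAAG was in 8.86% of all 32851 windows and the NRF1 element GCGCATGCG in 1.75%. The ERR element TNAAGGTCA was in 1.28% of the windows, and the PPAR direct repeat of AGGTCA spaced by 1 base was in 0.04%. Neither of these was in any of the 14 member windows. A match describes letters in this window and says nothing of binding.

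Dye orientation was balanced over genotype but coincided with the set of animals, and values differed with it for a pair of member probes. Cy5 against Cy3 arrays differed at an adjusted p under 0.05 (limma) for 2 of the 22 probes, against 6.43% of all probes tested. The Cy5 minus Cy3 difference was -0.54 ± 0.086 for Esrra probe 24812 (limma adjusted p = 0.00477) and -0.50 ± 0.10 for Tfam probe 22325 (limma adjusted p = 0.0138). Within the Cy3 arrays, 17 of the 22 genotype differences were above 0, with a median of 0.14, while within the Cy5 arrays 11 were above 0, with a median of -0.018. Over all probes those medians were -0.00080 and -0.0043, with 18364 and 18108 of 36826 differences above 0. The member probes share their hearts, and several share a gene, so these counts of sign carry no test. The genotype difference itself differed between dye orientations in 0 of 22 members and in 0 of all probes (0%, limma). At an unadjusted p under 0.05 (limma) it did so in 0 of 22 members and in 1804 of all 36826 probes. The number of members whose KO and WT values lay fully apart was 0 of 22, against 0.516% of all probes.

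**Figure D3:**
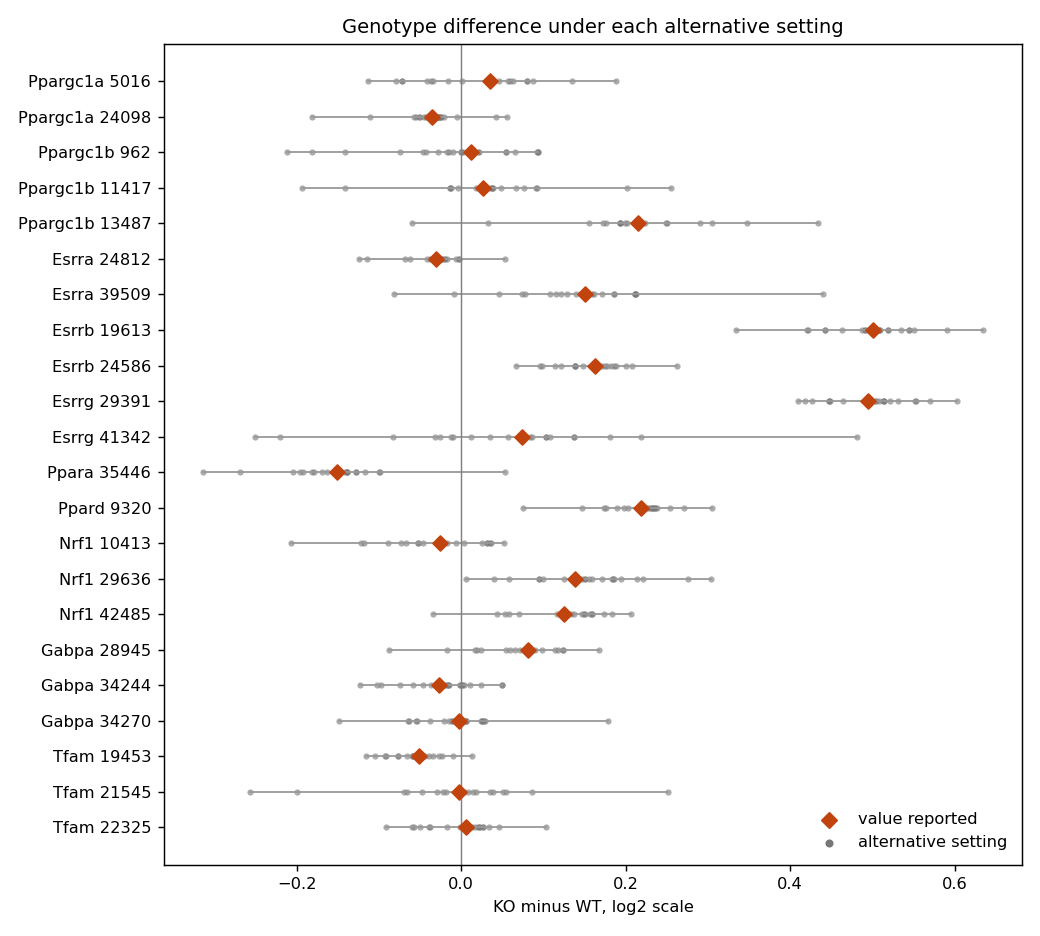
KO minus WT difference of each member probe, on the log2 scale, as fitted with dye orientation and under each other setting that gave the probe a value, with 1 point per setting. Esrrb probe 19613 and Esrrg probe 29391 keep every point above 0.3, while most other probes have points on both sides of 0.

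Between arrays, the correlations of members had no common direction. Over 45 pairs of member genes, with 1 probe per gene and values centred within genotype and dye, Pearson's r was above 0 for 23 pairs and below 0 for 22, with a median of 0.0077 over 8 to 12 arrays. Exact permutation within the combinations of genotype and dye gave an unadjusted p under 0.05 for 3 pairs and an adjusted p under 0.05 for 0. A pair had 16 to 1296 such arrangements, which sets a floor under its p. Pairs with few arrangements could hardly pass after adjustment, so the adjusted count of 0 says little about the members. The pair with the smallest p was Ppargc1b with Esrrg, at r = 0.80 and rho = 0.92 over 10 arrays (exact permutation p = 0.0069 for each, adjusted 0.208 for r and 0.313 for rho). Without the 2 arrays farthest from the Ppargc1b median, r was 0.79. Esrra with Gabpa had r = 0.73 and rho = 0.64 over 11 arrays (exact permutation p = 0.0093 and 0.0208, adjusted 0.208 and 0.469), and r = 0.82 without the farthest 2. Esrra with Ppard had r = 0.99 and rho = 0.90 over 9 arrays (exact permutation p = 0.0208 and 0.0417, adjusted 0.313 and 0.625), and r = 0.98 without the farthest 2, but only 48 arrangements exist there.

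For Ppargc1a, Esrra and Ppara, the probes of other named genes with the highest Pearson r were listed, after centring within dye. For Ppargc1a probe 5016 they were Atp6v1h, Ubr3 and Miga1, with r of 0.95, 0.94 and 0.93 over 10 arrays, among 14723 candidate probes. For probe 24098 they were Dusp18, Ing4 and Fbxo42, with r of 0.92, 0.91 and 0.90 over 11 arrays, so the 2 probes of Ppargc1a shared none of them. For Esrra probe 24812 they were Rnaset2b, Eif1ax and Hspb7, with r of 0.88, 0.87 and 0.87 over 12 arrays. For Esrra probe 39509 they were Atxn1, Alpk3 and Ube2r2, with r of 0.94, 0.92 and 0.92 over 11 arrays, again sharing none with the first probe. For Ppara they were Ubxn4, Fancm and Psmb2, with r of 0.94, 0.92 and 0.92 over 11 arrays. These are the highest of very many correlations over few arrays that share 1 reference RNA, and they carry no test.

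Genes that work with the members were read from 6 lists, and 0 of their probes were called in KO against WT (limma). The share at a limma unadjusted p under 0.05 was 7.81% for coregulators, 5.80% for upstream controls and 7.50% for PPAR targets. It was 2.44% each for NRF1 and GABP targets and for mitochondrial DNA genes, and 0% for ERR targets. Of all probes tested the share was 5.42%. The coregulators and partner receptors had 33 of 64 probes above 0 and 31 below, with 5 at an unadjusted p under 0.05 and a median of 0.0075 (-0.013 after quantile normalization, and -0.029 to 0.015 with 1 array left out, the lowest without KO replicate 1). The lowest p there belonged to Thrb, the beta thyroid hormone receptor, at 0.37 ± 0.12, and to Ncoa2, a steroid receptor coactivator, at 0.31 ± 0.11. Other probes of Thrb gave -0.23 ± 0.15 and -0.26 ± 0.17, and other probes of Ncoa2 gave -0.15 ± 0.20 and 0.015 ± 0.13. Whether probes of the same gene differed from each other was not tested. The upstream controls of PGC-1 alpha had 45 of 69 probes above 0 and 24 below, with 4 at an unadjusted p under 0.05 and a median of 0.045, or 0.0039 after quantile normalization. With 1 array left out that median ran from 0.024 without KO replicate 3 to 0.059 without WT replicate 1, and it was -0.0070 without the 5 arrays with Myl4 above 1. Prkab1, the beta 1 subunit of AMPK itself, was at -0.33 ± 0.12, and Atf2, a stress-activated factor that acts on the Ppargc1a promoter, was at 0.31 ± 0.11. The other Atf2 probes gave 0.26, 0.11, 0.094 and 0.054.

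Target genes of the receptors and factors were also uncalled. ERR targets in heart had 12 of 41 probes above 0 and 29 below, with a median of -0.067 and 0 at an unadjusted p under 0.05. Over fits without a single array, that median ran from -0.12 without WT replicate 2 to -0.00022 without WT replicate 1, and after quantile normalization it was -0.15. All 41 had a level above 0, with a median level of 3.31. Kcnq1, a cardiac potassium channel, was at 0.26 ± 0.12 and Slc25a4, the adenine nucleotide carrier of heart mitochondria, at -0.38 ± 0.21. The other Slc25a4 probe gave -0.19 ± 0.18. NRF1 and GABP targets had 12 of 41 probes above 0 and 29 below, with a median of -0.054, and 1 at an unadjusted p under 0.05. Their median, with single arrays left out, ran from -0.12 without WT replicate 2 to 0.00038 without WT replicate 5, and after quantile normalization it was -0.13. In that list Tomm20 and Tomm70a, receptors of the outer mitochondrial membrane import machinery, were at -0.27 ± 0.12 and -0.28 ± 0.15. The second Tomm20 probe gave -0.17 and the other Tomm70a probes -0.067, -0.051 and -0.0028. The list holds Tfam, itself a member, and shares Cycs, Cox5b, Sdhb and Sdhd with the ERR targets. It also shares Tfb1m, Tfb2m and Polrmt with the mitochondrial DNA genes and Mef2a with the upstream controls. Pdk4, Cpt1b, Fabp3 and Acadm are in both the ERR and the PPAR lists. The splits of these lists are therefore not separate observations. Probes of 1 list share their arrays, so these splits of sign carry no test, and over all probes 18451 were above 0 and 18375 below.

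PPAR alpha and delta targets had 22 of 40 probes above 0 and 18 below, with a median of 0.011 (-0.034 after quantile normalization), and 3 at an unadjusted p under 0.05. That median was -0.048 without WT replicate 2, 0.048 without WT replicate 5 and -0.059 without the 3 arrays with other tissues. Cpt1a, which admits long-chain fatty acids to mitochondria, was at 0.32 ± 0.13, and Angptl4, a secreted inhibitor of lipoprotein lipase, at 0.97 ± 0.40. Within the Cy3 and the Cy5 arrays Angptl4 was at 0.60 and 1.42, and Cpt1a at 0.44 and 0.21. The other Cpt1a probe gave 0.21 ± 0.13. KO replicate 6, with liver transcripts, is a Cy5 array, and its share in these differences was not tested. Genes of mitochondrial DNA transcription and replication had 21 of 41 probes above 0 and 20 below, with a median of 0.016 (-0.013 after quantile normalization), and 1 at an unadjusted p under 0.05. Its median ran, with single arrays left out, from -0.0075 without WT replicate 2 to 0.026 without KO replicate 3. Slirp, a mitochondrial RNA-binding protein, was at 0.41 ± 0.17 by 1 probe and -0.060 by another, and Mterf3, a regulator of mitochondrial transcription, was at 0.26 ± 0.13. Without the 5 arrays with Myl4 above 1, the medians were -0.16 for ERR targets, -0.11 for NRF1 and GABP targets and -0.072 for PPAR targets. In that setting they were 0.0185 for mitochondrial DNA genes, -0.0099 for coregulators and -0.00235 over all probes. The 12 genes named from the lists had limma adjusted p between 0.884 and 0.922.

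**Figure D4:**
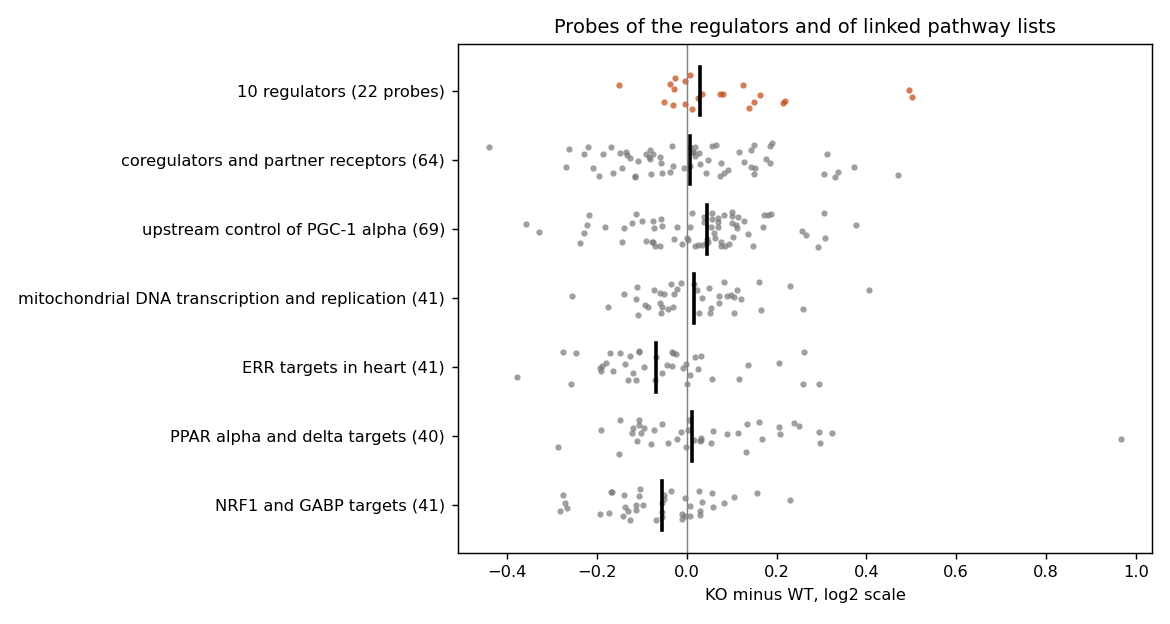
KO minus WT difference of every probe of the 10 regulators and of the 6 lists, on the log2 scale, with 1 point per probe and a bar at each median. The medians lie between -0.067 for ERR targets and 0.045 for upstream controls, and 0 points in these groups passed the adjusted threshold.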

How the data were processed

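Ventricular RNA of 6 KO and 6 WT mice was measured on 2-colour Agilent arrays, 1 per animal, against 1 reference RNA; per the labels, the dyes were swapped on distinct animals. The deposited table holds 1 log ratio per probe and array, taken here as log2. How background was corrected, how arrays were normalized, why cells are empty and the log base are not given in the sources used here; with natural logarithms all differences and errors would grow by 1 factor. Array medians lay between -0.029 and 0.068. Arrays of opposite dye correlated across probes at 0.835 to 0.936, so the columns already run in 1 direction, and the cardiomyocyte markers set it as heart over reference. The number of arrays limits the precision.

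Probes were named through the platform annotation (31700 with 1 symbol, 47 with several, 9427 with none), and 31564 Entrez identifiers matched RefSeq. A probe needed 2 values in each combination of genotype and dye, which kept 36826 and left out 4348; empty cells were not imputed. limma 3.58.1 (R 4.3.3) fitted genotype with dye orientation as covariate, two-sided, with Benjamini-Hochberg adjustment over all probes kept at a threshold of 0.05. With empty cells, a fitted difference can differ slightly from that of the printed means. The level is the mean over genotype and dye in the same kind of fit. The scripts were tested on simulated data. Python 3.11.15 with pandas 2.3.3 and numpy 2.4.6 did the rest.

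Members and gene lists were chosen with earlier results of these data known. All member probes are given; of each list, genes that passed the test are named, or else the 2 of smallest p, and likeness is given for the 3 highest correlations. Alternatives were the dye term, a replicate block, centring, quantile normalization, array weights, a robust variance, the value filter, gene means, left-out arrays and each dye alone; leaving out the 5 arrays with Myl4 above 1 was added after seeing the data. Protein sequences were not used here.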

Additional observations from a re-analysis of the deposited data

Results flagged for a closer look

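Tfam probe 21545, which is annotated to the RefSeq transcript of mitochondrial transcription factor A, had 1 animal far from its group. WT replicate 5 read -0.946 (log2 heart over reference), while the other 5 WT hearts lay between -0.09 and 0.193, a gap of 0.752 of the group's whole range. The 6 KO hearts lay between -0.52 and 0.23 on that probe. In the same animal the other Tfam probes, 19453 and 22325, read 0.23 and 0.21, the first being the lowest of the 6 WT hearts. This was 1 of 44 groups of member values inspected, and chance marks about 5% of such groups.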

How the results depend on the processing

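Under all 26 alternatives 0 member probes were called in KO against WT (limma), and the smallest adjusted p of a member was 0.658, for Esrrb probe 19613 with array weights. Of 532 member differences, 85 changed sign against the reported value, over 17 probes; none of these had a called direction. The 5 probes that kept their sign throughout were Esrrb 19613 (0.33 to 0.64) and 24586 (0.067 to 0.26), Esrrg 29391 (0.41 to 0.60), Ppard 9320 (0.075 to 0.30) and Nrf1 29636 (0.0063 to 0.30). The members' median difference, 0.031 as reported, was 0.14 with Cy3 arrays alone and -0.041 without the 5 arrays with Myl4 above 1 (a setting chosen after seeing the data). It was below 0 in 5 alternatives, and with 1 array left out it ran from -0.0092 to 0.095. The count of called probes, 2 as reported, was 1 with no dye term, 1 with gene means, 1 without the 2 arrays with most empty cells and 1 without those 5 arrays. It was 5 among probes with values on all arrays, where fewer probes were tested, and 0 in either dye alone, where fewer arrays were used. With 1 array left out it ran from 1 to 4. The cause of the other shifts was not tested. With the replicate number as a replicate block in place of dye, 1 probe was called, the smallest member adjusted p was 0.976 and Esrrg 29391 differed by 0.60; deviations of same-numbered animals correlated at -0.24 to 0.014, so the numbers were not taken to pair animals. Of 396 recomputed levels, 384 kept their call, 12 lost it and 0 reversed; most were Nrf1 10413, and the others were Esrrg 29391 and Tfam 22325 with Cy5 alone and Gabpa 28945 with Cy3 alone.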
